A study of Mus musculus with 6 samples.

Results

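The genes described here encode the core proteins of the splicing machinery and a small set of its regulators. They are the genes on the arrays whose names begin with Srsf followed by a number, Hnrnp, Sf3a or Sf3b followed by a number, or Snrp, together with Esrp1, Esrp2, Rbfox2, Ptbp1, Mbnl1 and Mbnl2. The rule found 58 genes, measured by 109 probes, of 34298 gene names and 55681 probes in all. The rule uses gene names only, and each gene is given by its brightest probe, judged by the mean of the 6 arrays. By family there were 20 hnRNP genes, 12 Snrp genes, 11 Srsf genes, 9 Sf3a and Sf3b genes and the 6 single regulators.

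The arrays compared epithelial organoids of the mouse esophagus, which is lined by stratified squamous epithelium, with organoids of the columnar stomach epithelium. Organoids are 3D cultures grown in a basement membrane gel from tissue stem cells. Each tissue was represented by organoids of mice 1, 2 and 4 at passage 0, harvested on day 8, with 1 exception, the stomach culture of mouse 4 (day 7). No further treatment, genotype, strain or age is given in the labels, and all 6 arrays are labelled as controls. The stomach organoids were grown from glands of the corpus in a medium with WNT3A and R-spondin1 conditioned media and gastrin, while the esophageal medium lacked these and held forskolin. Tissue and medium therefore cannot be told apart.

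The spliceosome removes introns from pre-mRNA. Most of its small nuclear ribonucleoproteins (snRNPs) carry a ring of Sm proteins. The SF3a and SF3b complexes belong to the U2 snRNP, which recognises the branch point. SR proteins mostly promote the use of exons and hnRNP proteins often repress it, whereas ESRP, RBFOX, MBNL and PTBP proteins regulate exons that differ between cell types, ESRP proteins being known for epithelial splicing.

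The labels were checked against markers. Of 5 squamous markers, Krt5, Krt14, Krt13 and Sox2 were higher in esophageal organoids at an adjusted p under 0.05. The brightest probe of Trp63 was lower at the same threshold (log2 fold change -1.22). Other Trp63 probes are not given here, and the paper reports P63 protein in esophageal organoids by staining. All 5 columnar markers (Krt8, Krt18, Krt7, Gata6 and Hnf4a) were lower. None of the fibroblast, smooth muscle, immune or endothelial markers passed the test, and Lum, Pdgfra, Des, Myh11, Lyz2, Ptprc and Cdh5 were well above background on no array. Cd68, a macrophage marker, and Tagln, Cd3e, Kdr and Pecam1 were above background on all 6. Cd68 had values of 11.04, 11.22 and 12.36 in stomach organoids and 14.77, 12.94 and 11.80 in esophageal organoids (log2 fold change 1.63, adjusted p 0.211). The groups overlapped. The log2 summed level of the 5 immune markers was 11.21 to 12.48 in stomach and 11.91 to 14.79 in esophageal organoids, and their part in the results was not tested. Of 3 genes used as neuron markers, Tubb3 and Elavl4 were higher and Snap25 was lower in esophageal organoids, and Elavl4 is also in a list of splicing regulators. Between 45.5% and 51.1% of probes were well above background on an array. The array of the esophageal organoids of mouse 4 lay alone on slide 2 and was scanned apart from the others, and calls lost without it are given beside the genes concerned. Fitting the slide as a block gave the same values as leaving out this array, and counts of alternatives include both.

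As a group the splicing genes lay slightly higher in esophageal organoids, and 1 gene, Snrpn, was far lower. A total of 48 of 58 genes had a log2 fold change (esophagus over stomach) above 0, with a median of 0.36. With scaling to the 75th percentile the median was 0.65, 57 genes lay above 0 and none was called higher in esophageal organoids. That scaling also raised the median of genes above background from 0.09 to 0.22. Why the signs of some single genes turned under that scaling was not tested. Of the 57 genes well above background on all 6 arrays, 47 lay above 0. Over all gene names 53.6% lay above 0, with a median of 0.03, and over the 15649 gene names well above background on all 6 arrays 56.3% lay above 0, with a median of 0.09. Single genes rarely passed the test. Snrpe, Snrpd1 and Hnrnpr were called higher in esophageal organoids, or 5.17% of the genes, against 7.15% of all gene names and 11.1% of those above background. Snrpn alone was called higher in stomach organoids, or 1.72%, against 7.7% and 10.6%. The share called higher in esophageal organoids was thus near that of all gene names. The share above 0, 82.8%, was larger than in the background.

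**Figure D1:**
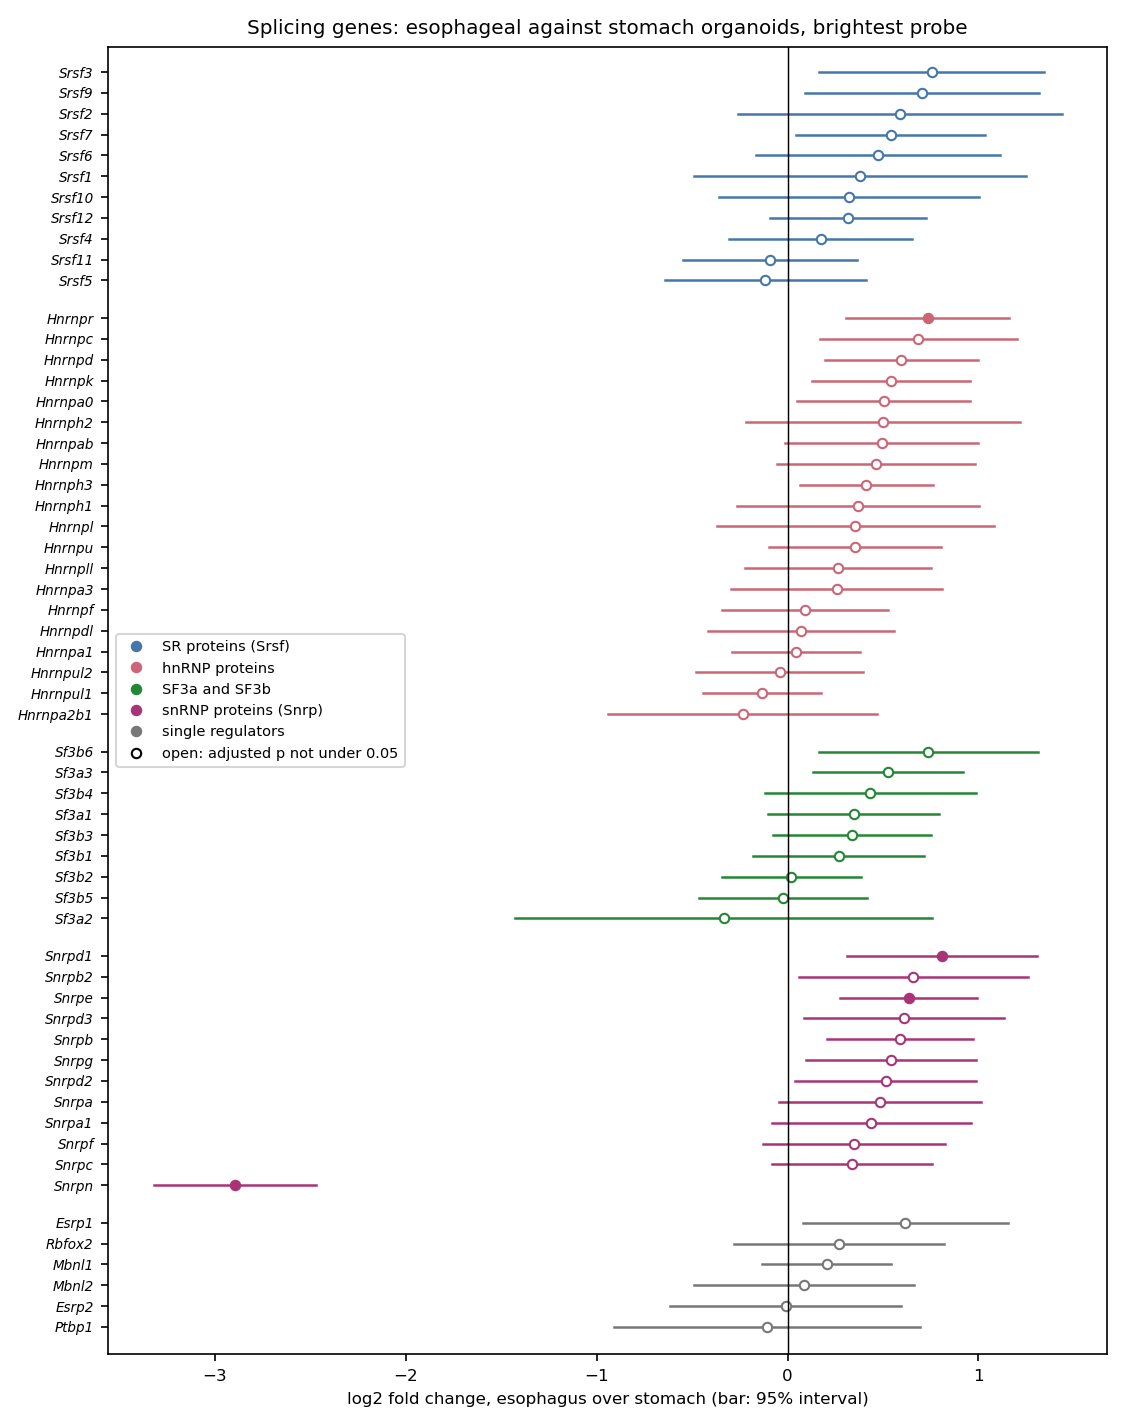
The plot shows the log2 fold change of esophageal over stomach organoids for the brightest probe of all 58 genes, ordered within each family, with the 95% interval of the fit as a bar. Filled points passed an adjusted p of 0.05. Most points lie between 0 and 0.81, and Snrpn stands alone at -2.90.

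All members but Srsf12 were well above background on all 6 arrays. By the threshold named in the study's methods, an unadjusted p under 0.05 with a change of at least 1.5-fold, 12 genes were higher and 1 was lower in esophageal organoids. Those 12 were Esrp1, Hnrnpc, Hnrnpd, Hnrnpr, Sf3b6, Snrpb, Snrpb2, Snrpd1, Snrpd3, Snrpe, Srsf3 and Srsf9. They made up 20.7% of the members, against 11% of all gene names and 17.8% of those above background. The lower gene, Snrpn, made up 1.72%, against 10.7% and 15.4%. In 16 genes the 3 esophageal arrays lay above the 3 stomach arrays without overlap, or 27.6%, against 16.9% and 23.7%. The reverse was seen in Snrpn and Hnrnpul1, or 3.45%, against 14.7% and 17.8%.

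Snrpn encodes SmN, a variant Sm ring protein that can take the place of SmB, and is a paternally expressed imprinted gene best known from neurons. Its log2 value was 8.80, 8.58 and 8.99 in the stomach organoids of mice 1, 2 and 4. In the esophageal organoids it was 5.85, 6.14 and 5.69. The groups were separated by more than 2 log2 units, and both were well above background. Snrpn was 7.45-fold lower in esophageal organoids, with a log2 fold change of -2.90 ± 0.18 (SE, n = 3 arrays per tissue) and an adjusted p of 3.5e-05. The difference passed the test under every alternative processing, with log2 fold changes between -3.70 and -2.06. RNA of a bulk culture does not tell fewer cells with a transcript from less RNA per cell.

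The second Snrpn probe gave the same direction. It had values of 8.13, 8.17 and 7.75 in stomach organoids and was not well above background in any esophageal array, where its measured values were 5.29, 5.08 and 5.12. On the authors' values it was at least 7.13-fold lower in esophageal organoids (adjusted p 2.52e-05), and its fitted log2 fold change lay between -4.61 and -2.03 over 14 alternatives, all of them called. The third probe was well above background on 1 stomach array and on no esophageal array, its values overlapped between the tissues, and it has no measured direction. The 3 probes lie within chr7:67127426-67140352 of the mm9 assembly on the minus strand, and each is 60 bases long. The first 30 bases of each are given in lower case to show which stretches of the transcript were measured, named by their order of brightness.
Snrpn probe 1 (chr7:67132330-67132389): caagatgggagaatcttcattggcaccttc
Snrpn probe 2 (chr7:67140293-67140352): acaccaagaggtggttaaagcagtattgca
Snrpn probe 3 (chr7:67127426-67127485): cagacatctatcatgtactgggtctatttt

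Snrpb, which encodes the SmB proteins of the same ring, had the opposite sign. Its values were 10.42, 10.80 and 10.41 in stomach organoids and 11.09, 11.06 and 11.24 in esophageal organoids. The groups did not overlap, but the adjusted p was 0.0601 (log2 fold change 0.59 ± 0.16, SE). Aligned without gaps, at most 23 of the 60 bases of any Snrpn probe matched the Snrpb probe. The rest of the Snrpb transcript was not compared, so binding of Snrpb RNA to the Snrpn probes was not tested.

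Among the other Sm genes, Snrpe and Snrpd1 passed the test. Snrpe (SmE) had values of 14.06, 14.03 and 14.14 in stomach organoids and 14.51, 14.74 and 14.89 in esophageal organoids, with no overlap. It was 1.55-fold higher in esophageal organoids (log2 fold change 0.63 ± 0.15, SE; adjusted p 0.0348). A second Snrpe probe, whose ends lie 2377 bases apart on the genome, gave 0.68 with an adjusted p of 0.0403, a call lost under 10 of 14 alternatives, at 0.0696 with the mouse as a block and 0.0846 without the esophageal array of mouse 4. Both Snrpe probes thus moved by a similar amount.

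By its brightest probe, Snrpd1 (SmD1) had the largest difference above 0 of all 58 genes, at 1.75-fold (log2 fold change 0.81 ± 0.21, SE; adjusted p 0.0486). Its values were 13.90, 13.62 and 13.90 in stomach organoids and 14.34, 14.47 and 15.05 in esophageal organoids, and the array of mouse 4 was the highest. A second Snrpd1 probe, above background on all 6 arrays, measured 11.05, 11.14 and 11.27 against 11.76, 11.15 and 11.93. These groups overlapped, and its log2 fold change of 0.46 did not pass the test (adjusted p 0.26). With the mean of all probes Snrpd1 lost its call. Neither the Snrpe nor the Snrpd1 call was firm. With the mouse as a block, in which each esophageal culture is compared with the stomach culture of the same mouse number, the adjusted p was 0.0671 for Snrpe and 0.0558 for Snrpd1. Without the esophageal array of mouse 4, the adjusted p was 0.0899 for Snrpe and 0.0818 for Snrpd1, and leaving out any stomach array also ended both calls, with adjusted p up to 0.128 for Snrpe and 0.179 for Snrpd1. Without the esophageal array of mouse 2 the values were 0.101 and 0.086.

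The Snrp family as a whole had 11 of 12 genes above 0 and a median log2 fold change of 0.53, the highest of the 5 families. In 7 of the 12 genes, or 58.3%, the esophageal arrays lay above all stomach arrays, against 16.9% of all gene names and 23.7% of those above background. Snrpb2 and Snrpa1, which belong to the U2 snRNP, Snrpa, which binds U1 snRNA, and Snrpc, which helps U1 to bind the start of the intron, did not pass the test. Nor did Snrpg, Snrpd2, Snrpd3 and Snrpf, the remaining ring proteins. The log2 fold changes of the uncalled Snrp genes ran from 0.34 in Snrpc to 0.66 in Snrpb2.

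**Figure D2:**
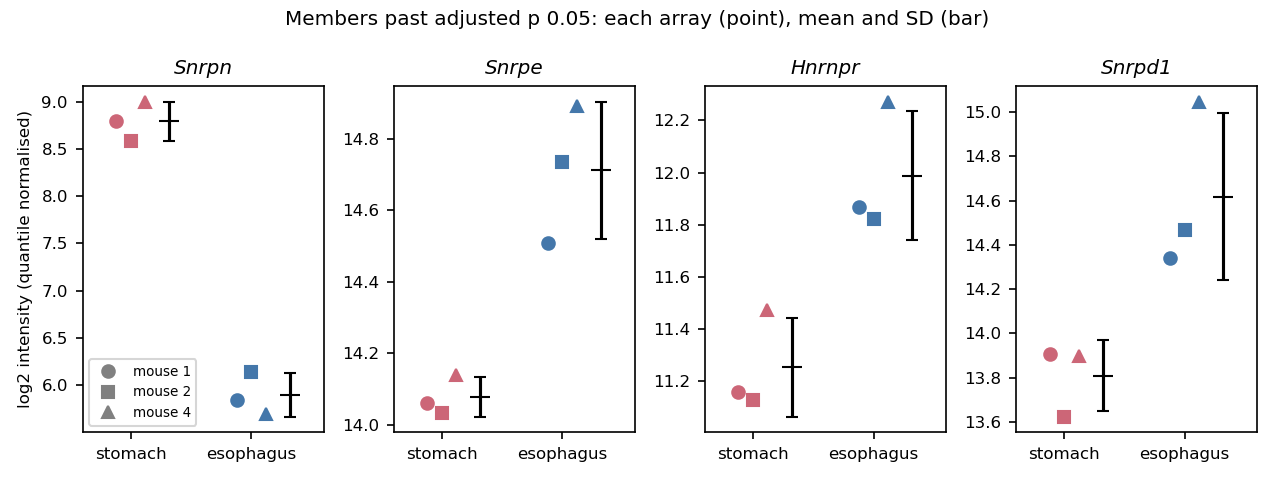
Each panel shows the log2 intensity of 1 of the 4 called genes in the 3 stomach and the 3 esophageal arrays, with a symbol per mouse and the mean and SD beside the points. The vertical axes differ between panels and do not start at 0. Mean Snrpn is 8.79 in stomach and 5.89 in esophageal organoids, whereas the other genes are higher in esophageal organoids by 0.63 to 0.81.

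Hnrnpr, an hnRNP protein that binds RNA through several recognition motifs, was the only called gene of its family. Its brightest probe gave 11.16, 11.13 and 11.47 in stomach organoids and 11.87, 11.82 and 12.27 in esophageal organoids, without overlap. The log2 fold change was 0.73 ± 0.18 (SE), or 1.66-fold, with an adjusted p of 0.0391. With the mouse as a block it was 0.0365. The call was lost without any 1 of the esophageal arrays (adjusted p 0.0574, 0.0635 and 0.0902 without mouse 1, 2 and 4) and without the stomach array of mouse 1 (0.152) or 2 (0.148).

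The probes of Hnrnpr did not share a direction. The second probe gave a log2 fold change of -1.19 (adjusted p 0.194), with values of 11.02, 10.70 and 10.49 in stomach organoids and 10.20, 8.26 and 10.19 in esophageal organoids. All 3 esophageal arrays were lower, and the array of mouse 2 was far below the others. Without the esophageal array of mouse 2 the log2 fold change of this probe was -0.55 (adjusted p 0.189). The third probe gave 0.18. The mean of the 3 probes had a log2 fold change of -0.09 (adjusted p 0.891), so the direction of Hnrnpr depended on the probe. The first 30 bases of the 2 brightest probes, both on the plus strand of mm9, show the stretches that disagreed.
Hnrnpr probe 1 (chr4:135896498-135896557): cgtcaaagccgtgacaatttgttctttgat
Hnrnpr probe 2 (chr4:135905891-135905950): cagtaggtagggttaattggtagactatca

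Of the 20 hnRNP genes, 17 had a log2 fold change above 0, with a median of 0.36, and 6 had no overlap between the tissues with esophagus higher, or 30%, against 16.9% of all gene names and 23.7% of those above background. These were Hnrnpr, Hnrnpc, Hnrnpd, Hnrnpk, Hnrnpa0 and Hnrnph3. Hnrnpc, which packages nascent transcripts, was 1.61-fold higher (log2 fold change 0.68, adjusted p 0.098), and Hnrnpd, also known as AUF1 and involved in mRNA decay, was 1.51-fold higher (0.60, adjusted p 0.0678). Neither passed the test. Hnrnpc had values of 14.01, 14.09 and 14.78 in stomach organoids and 15.04, 14.87 and 15.03 in esophageal organoids, so the stomach array of mouse 4 came close to the esophageal ones. Without that array Hnrnpc was called.

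Hnrnpa2b1, a partner of Hnrnpa1 in exon repression, had the lowest value of the family, with a log2 fold change of -0.24 (95% interval -0.94 to 0.47, adjusted p 0.725). Its values overlapped, at 13.44, 13.23 and 13.61 in stomach organoids and 12.61, 13.11 and 13.86 in esophageal organoids. Hnrnpul1 was lower in all 3 esophageal arrays by a small amount, with a log2 fold change of -0.14 (adjusted p 0.628) that turned to 0.060 with the mean of its probes. The remaining genes (Hnrnpa1, Hnrnpa3, Hnrnpab, Hnrnpdl, Hnrnpf, Hnrnph1, Hnrnph2, Hnrnpl, Hnrnpll, Hnrnpm, Hnrnpu and Hnrnpul2) had brightest probes with log2 fold changes between those of Hnrnpul1 and Hnrnpc.

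None of the 11 Srsf genes passed the test, although 8 of the 10 that were well above background on all 6 arrays had a log2 fold change above 0, with a median of 0.43. The largest was Srsf3, the smallest of the classical SR proteins, which also takes part in mRNA export. Its brightest probe gave 12.39, 12.23 and 12.97 in stomach organoids and 12.89, 13.40 and 13.56 in esophageal organoids (log2 fold change 0.76, adjusted p 0.109). The groups overlapped through the stomach array of mouse 4. A second Srsf3 probe had values of 11.11, 11.42 and 11.32 against 11.89, 12.27 and 12.41, and passed the test with a log2 fold change of 0.90 (adjusted p 0.0167). That call was lost under 3 of 14 alternatives, with adjusted p of 0.0542 with scaling to the 75th percentile, 0.0615 without the esophageal array of mouse 2 and 0.0827 without the stomach array of mouse 1. Srsf9 was 1.63-fold higher (log2 fold change 0.71, adjusted p 0.148).

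Srsf2, also called SC35, showed how 1 array set the spread. It had values of 10.58, 10.53 and 11.96 in stomach organoids and 11.64, 11.71 and 11.49 in esophageal organoids (log2 fold change 0.59, adjusted p 0.402). Without the stomach array of mouse 4 its log2 fold change was 1.06, with an adjusted p of 0.00624. At the other end of the family, Srsf5 had a log2 fold change of -0.12 (95% interval -0.64 to 0.41). Srsf12, which acts against other SR proteins, was well above background on none of the 6 arrays, with measured values between 4.69 and 5.36, so its fitted log2 fold change of 0.32 is no measured difference. The remaining Srsf genes (Srsf1, Srsf4, Srsf6, Srsf7, Srsf10 and Srsf11) had log2 fold changes between those of Srsf5 and Srsf9.

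The 9 SF3a and SF3b genes had no call. In 7 the log2 fold change was above 0, and the median was 0.34. Sf3b6, the subunit that lies next to the branch point adenosine, was the highest, at 12.20, 11.75 and 12.37 in stomach organoids and 12.80, 12.48 and 13.25 in esophageal organoids. The groups did not overlap and the log2 fold change was 0.74 ± 0.25 (SE), with an adjusted p of 0.108. With the mouse as a block the adjusted p was 0.0408. Sf3a3 also had no overlap (log2 fold change 0.53, adjusted p 0.0965).

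Sf3a2, another SF3a subunit, had the lowest value, and it rested on 1 array. It measured 12.90, 12.87 and 14.75 in stomach organoids and 13.30, 13.14 and 13.09 in esophageal organoids, so the log2 fold change was -0.33 (95% interval -1.43 to 0.76). Without the stomach array of mouse 4 it was 0.29, with an adjusted p of 0.342. Sf3b1, the subunit that holds the branch point helix, had a log2 fold change of 0.27 (adjusted p 0.482). Sf3a1, Sf3b2, Sf3b3, Sf3b4 and Sf3b5 lay between Sf3a2 and Sf3a3.

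The 6 single regulators were the family nearest to 0, with a median log2 fold change of 0.15 and none called by the brightest probe. Esrp1, which drives the epithelial form of many exons, had values of 11.41, 11.46 and 11.50 in stomach organoids and 12.41, 12.27 and 11.55 in esophageal organoids. The groups did not overlap, but the esophageal array of mouse 4 lay close to the stomach arrays, and the log2 fold change of 0.62 had an adjusted p of 0.15. Without that array it was 0.88, with an adjusted p of 0.0127. A second Esrp1 probe gave 8.06, 7.91 and 8.32 against 8.80, 8.87 and 8.69, and passed the test (log2 fold change 0.69, adjusted p 0.0291). That call was lost under 7 of 14 alternatives.

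Its paralog Esrp2 had a log2 fold change of -0.01 (95% interval -0.61 to 0.60). Values were 10.95, 11.10 and 11.16 in stomach organoids and 11.59, 11.05 and 10.53 in esophageal organoids, so the esophageal arrays spanned the stomach ones. The log2 fold change was 0.25 without the esophageal array of mouse 4. The interval leaves room for a change of about 1.5-fold in either direction.

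Rbfox2, which binds GCATG in introns and changes the use of the adjacent exon, gave different results with its 2 probes. The brightest probe measured 9.81, 9.76 and 9.03 in stomach organoids and 9.87, 9.95 and 9.59 in esophageal organoids, which overlapped (log2 fold change 0.27, 95% interval -0.28 to 0.82, adjusted p 0.577). Without the stomach array of mouse 4 its log2 fold change was 0.019. The second probe measured 9.09, 9.07 and 9.15 in stomach organoids and 9.79, 10.23 and 10.11 in esophageal organoids. These groups were apart, with a log2 fold change of 0.94 ± 0.16 (SE) and an adjusted p of 0.0073. The second probe passed the test under all 14 alternatives. With the mean of both probes Rbfox2 was called, with a log2 fold change of 0.61 (adjusted p 0.0408). The 2 probes lie on the minus strand of mm9 less than 2 kb apart, and their first 30 bases show which stretches they read.
Rbfox2 probe 1 (chr15:76914284-76914343): tttggaggggggttggttttttgggggttt
Rbfox2 probe 2 (chr15:76912771-76912830): tacacatttttgactgataaatgattcatg

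Ptbp1, a repressor of many tissue-specific exons, had a log2 fold change of -0.11 (95% interval -0.91 to 0.69). Its values were 12.95, 13.28 and 13.77 in stomach organoids and 12.49, 13.51 and 13.68 in esophageal organoids. Its sign turned to 0.26 without the esophageal array of mouse 1. Mbnl1 and Mbnl2, which bind CUG repeats and change splicing during differentiation, had log2 fold changes of 0.21 (95% interval -0.13 to 0.54) and 0.09 (-0.49 to 0.66). Mbnl2 measured 12.77, 12.94 and 13.70 in stomach organoids and 13.33, 13.14 and 13.19 in esophageal organoids, with the stomach array of mouse 4 the highest of all.

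Across the list, 34 of the 58 genes had more than 1 probe, which gave 51 further probes. Of 44 that were well above background on all 6 arrays, 40 had the sign of the brightest probe and 4 the opposite one. The 4 were probes of Hnrnpr, Hnrnpa3, Hnrnpdl and Hnrnpul1. Of the further probes, 5 were called higher in esophageal organoids, in Esrp1, Hnrnpa3, Rbfox2, Snrpe and Srsf3, and 1 was called higher in stomach organoids, in Snrpn. With any probe counted, 8 of 58 genes had a call in either direction, or 13.8%, against 16.2% of all gene names and 24.2% of those above background. More probes give more chances of a call, and all 8 were among the 34 genes with more than 1 probe, or 23.5%, against 27.2% of such genes above background. Hnrnpa3, with 7 probes, ranged from -0.43 to 0.90, and its called probe (adjusted p 0.0484, lost under 10 of 14 alternatives, at 0.0705 with the mouse as a block and 0.0669 without the esophageal array of mouse 4) was one of 2 whose ends lie further apart on the genome than the probe is long, the other being at 0.81 (adjusted p 0.0748).

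**Figure D3:**
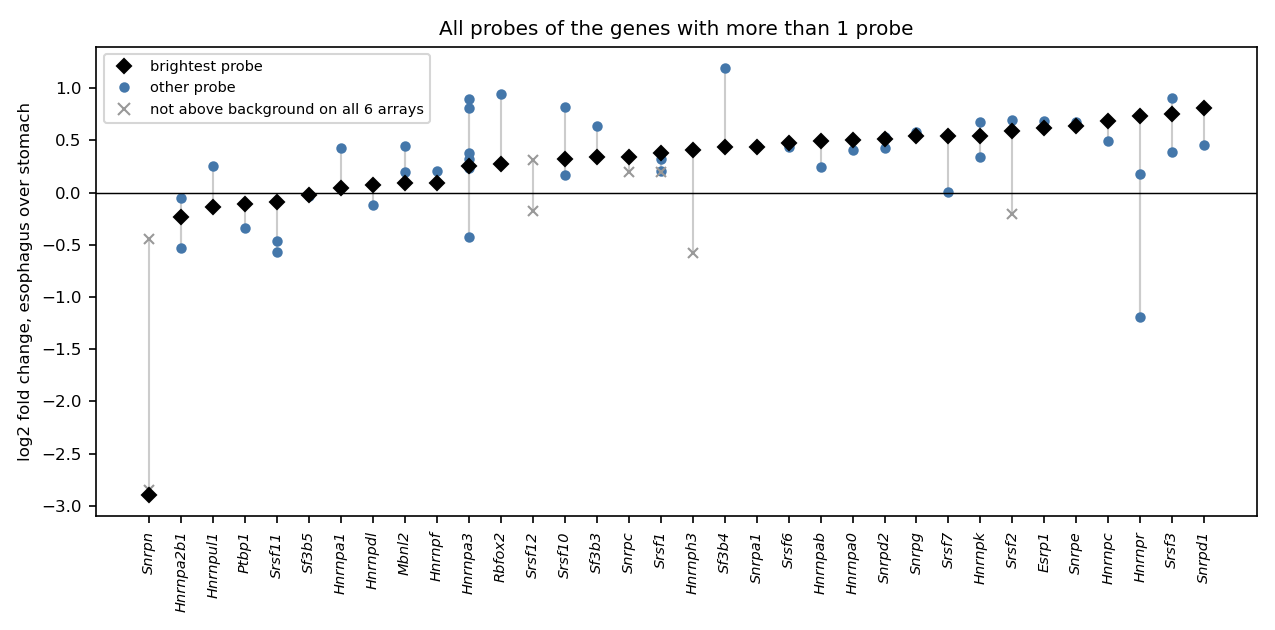
The plot shows the log2 fold change of every probe of the 34 genes with more than 1 probe, ordered by the brightest probe (diamond), with other probes as circles and probes not above background on all 6 arrays as crosses. Most circles lie on the side of 0 of their diamond, while Hnrnpr and Hnrnpa3 have probes on both sides.

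The arrays differed among themselves as well as between tissues. After the mean of each gene over 6 arrays was subtracted, the median of the 58 genes was -0.24, -0.35 and 0.03 in the stomach arrays of mice 1, 2 and 4. It was 0.01, 0.17 and 0.40 in the esophageal arrays. For all genes above background the medians stayed between -0.06 and 0.10. The stomach array of mouse 4 was the highest stomach array for 45 of 58 genes, and the esophageal array of mouse 4 was the highest of all 6 for 33. The stomach array of mouse 2 was the lowest of all 6 for 33.

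The offset was seen at each mouse number. The median difference between esophageal and stomach organoids with the same number was 0.26 in mouse 1, 0.49 in mouse 2 and 0.34 in mouse 4, with 42, 49 and 45 of 58 genes above 0. The same median over genes above background was 0.06, 0.07 and 0.13. Without the esophageal array of mouse 4 the median log2 fold change of the list was 0.30, with 48 of 58 genes above 0.

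**Figure D4:**
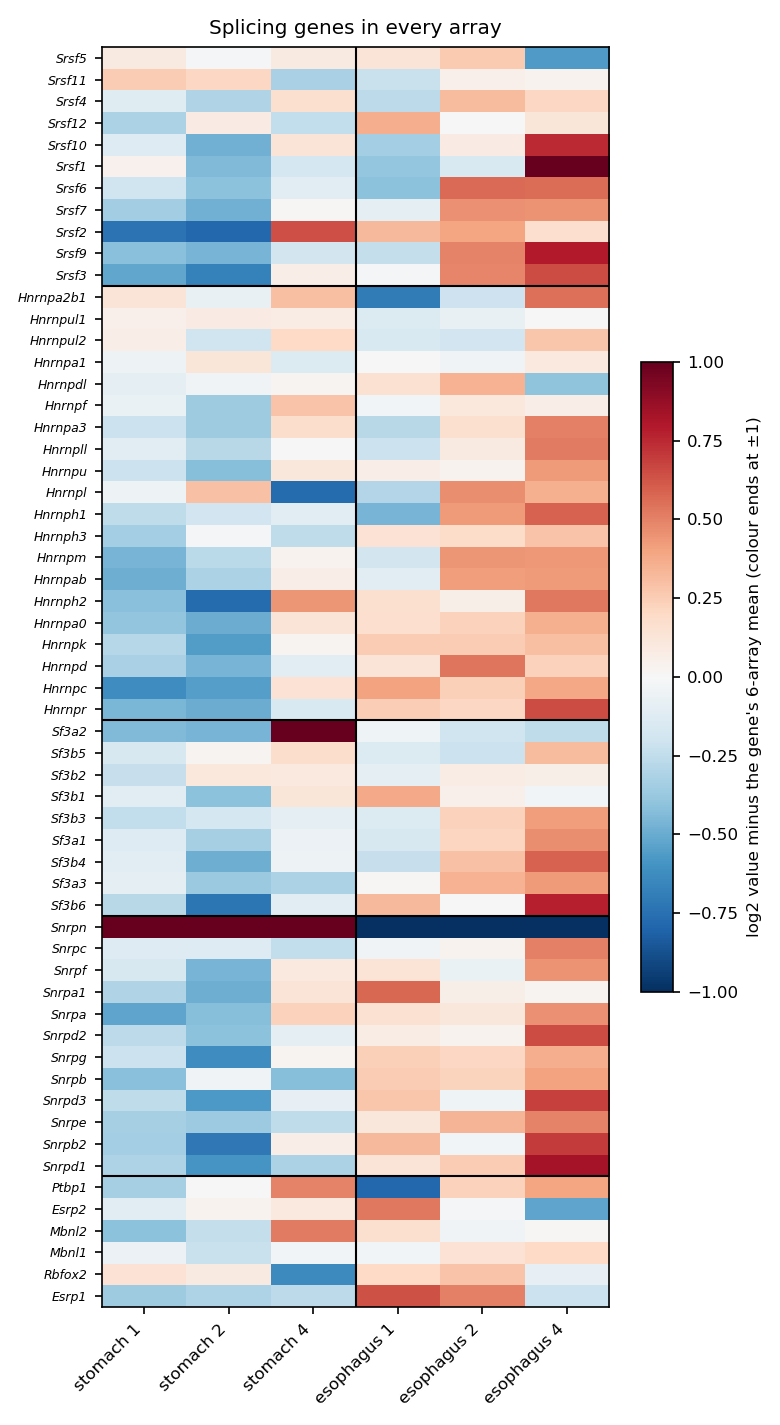
Rows are the 58 genes grouped by family and columns are the 6 arrays, and colour gives the log2 value minus the mean of the gene over the arrays, ending at 1 and -1. The esophageal array of mouse 4 is the highest for 33 genes and the stomach array of mouse 2 the lowest for 33.

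**Figure D5:**
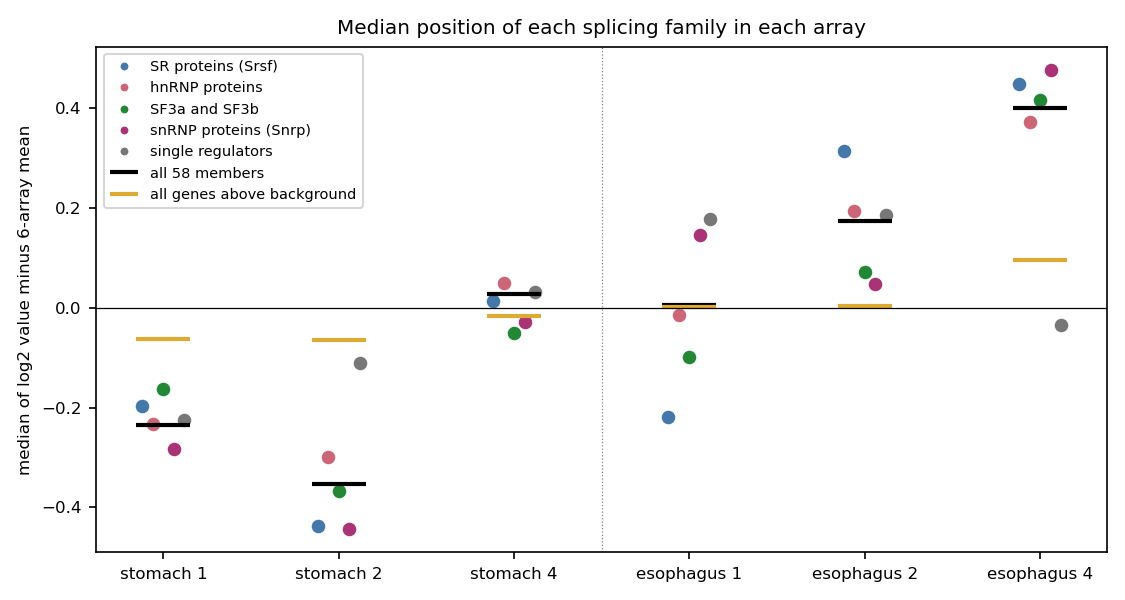
Points give the median of each family in each array after subtraction of the gene means, and bars give the median over all 58 genes and over all genes above background. All families but the single regulators are highest in the esophageal array of mouse 4 and lowest in the stomach array of mouse 2, and the Srsf genes lie at -0.22 in the esophageal array of mouse 1.

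Genes of the cell cycle varied between the same arrays. All 8 markers of cycling cells were well above background on all 6 arrays, none passed the test, and their median log2 fold change was 0.50. Their centred medians were -0.27, -0.32 and -0.02 in the stomach arrays and -0.51, 0.29 and 0.77 in the esophageal arrays of mice 1, 2 and 4. Their summed level ran from 15.58 to 15.67 on the log2 scale in stomach organoids and from 15.14 to 16.35 in esophageal organoids. Their part in the differences of the splicing genes was not tested.

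Other parts of the splicing machinery, grouped in 8 lists with 127 entries, had medians from 0.16 to 0.57. In all, 98 of 127 had a log2 fold change above 0, with a median of 0.38, and 15 were called higher and 2 lower in esophageal organoids, or 11.8% and 1.57%, against 7.15% and 7.7% of all gene names and 11.1% and 10.6% of those above background. Of the 113 entries above background on all 6 arrays, 90 lay above 0, 14 were called higher and 1 lower. The median was 0.29 for 9 genes of branch point recognition, none of which was called. It was 0.36 for 21 genes, mainly of the U1, U5 and tri-snRNP particles, with some of the minor spliceosome. Of these, Snrnp48 of the minor spliceosome (log2 fold change 0.90, adjusted p 0.0245) and Prpf3 were called higher. Of 15 genes of the Prp19 complex and the catalytic steps, Prpf19 was called higher (0.87, adjusted p 0.0455).

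All 10 LSm genes had a log2 fold change above 0, against 56.3% of gene names above background. Lsm5, a member of the ring on U6 snRNA, was 2.48-fold higher (log2 fold change 1.31 ± 0.29, SE; adjusted p 0.0229), with values of 10.84, 10.53 and 11.35 in stomach organoids and 11.87, 12.04 and 12.72 in esophageal organoids. Lsm10 and Lsm11 of the U7 particle, which processes histone mRNA, were also called higher. Of 13 genes of snRNP assembly, Wdr77, the partner of the methylase Prmt5 that modifies Sm proteins, was called higher (0.79, adjusted p 0.0327), and the median was 0.57. Of 9 exon junction genes 5 lay above 0, or 55.6%, and Eif4a3 was called (0.62, adjusted p 0.0468), and of 7 SR protein kinase genes Srpk2 was called (0.95, adjusted p 0.0205). Of the named genes of these lists, Lsm5 lost its call under 3 of 15 alternatives, Snrnp48 under 4, Srpk2 under 5, Wdr77 under 7, Prpf3 under 8, Prpf19 and Eif4a3 under 11 each, and Lsm10 and Lsm11 under 12 each. Without the esophageal array of mouse 4 the adjusted p was 0.0701 for Wdr77, 0.0762 for Prpf3, 0.0603 for Prpf19, 0.0997 for Eif4a3, 0.104 for Lsm10 and 0.12 for Lsm11.

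Among the 8 lists, the largest differences lay in one of 43 further regulators of splicing. In this list 6 were called higher and 2 lower in esophageal organoids, or 14% and 4.65%, against 7.15% and 7.7% of all gene names and 11.1% and 10.6% of those above background. The median was 0.16. Srrm4, which promotes neural microexons, was not well above background in stomach organoids and was, on the authors' values, at least 4.13-fold higher in esophageal organoids (adjusted p 0.00864). Its fitted log2 fold change lay between 1.33 and 4.41 over 15 alternatives, with an adjusted p of at most 0.0497. Its esophageal values were 6.90, 7.88 and 6.30 and its measured stomach values 4.99, 5.12 and 4.83. Khdrbs3, a STAR family RNA-binding protein, was lower, at 9.04, 8.92 and 9.55 in stomach organoids and 5.78, 6.68 and 6.95 in esophageal organoids (log2 fold change -2.70 ± 0.32, SE; adjusted p 0.00111). Khdrbs3 was well above background in 2 of 3 esophageal arrays. Rbm47, an RNA-binding protein of gut epithelium, was also lower (-2.46, adjusted p 0.000299). Qk, Celf4, Pcbp3, Elavl4 and Ptbp3, the last a paralog of Ptbp1, were the other genes called higher, and Elavl4 lost its call under 4 and Ptbp3 under 2 of 15 alternatives.

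Promoters of Snrpn, Snrpe and Hnrnpr are shown as examples from the called genes, since most splicing genes had similar small differences and Snrpn did not. RefSeq windows of the GRCm38.p6 assembly were found for 49 of the 58 genes, with 67 annotated starts, and the 250 bases before each start were read. The median window of these genes held 19 CG dinucleotides, against 6 over all 32851 windows. The 4 windows of Snrpn held 2 to 4, and 2 windows of other members also held at most 4, those of Mbnl1 with 1 and of Snrpa1 with 4. Bases outside the windows were not counted. A stretch rich in CG downstream of a start, in Snrpn or another gene, would therefore be missed. The letters CCGGAAG, the core of many ETS family sites, were found on either strand in 28.4% of the 67 windows and in 6.91% of all windows. CACGTG was found in 10.4% and 6.02%. Each of these motifs contains a CG, of which the windows of the members held more, and the shares were not matched for this. The windows printed below hold no CCGGAAG. Genes with several starts count more than once, and a match is not a binding site. Below, CG dinucleotides are in capitals, and the Snrpn window is that of the start furthest downstream, with 3, against 19 in Snrpe and 23 in the first of 2 Hnrnpr windows, the other holding 29.
Snrpn (chr7:60005200-60005449, minus strand): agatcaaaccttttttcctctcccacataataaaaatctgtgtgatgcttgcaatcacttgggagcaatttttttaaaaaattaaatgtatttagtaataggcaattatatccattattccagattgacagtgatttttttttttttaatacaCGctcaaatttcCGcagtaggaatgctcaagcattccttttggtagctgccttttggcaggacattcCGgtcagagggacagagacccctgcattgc
Snrpe (chr1:133610281-133610530, minus strand): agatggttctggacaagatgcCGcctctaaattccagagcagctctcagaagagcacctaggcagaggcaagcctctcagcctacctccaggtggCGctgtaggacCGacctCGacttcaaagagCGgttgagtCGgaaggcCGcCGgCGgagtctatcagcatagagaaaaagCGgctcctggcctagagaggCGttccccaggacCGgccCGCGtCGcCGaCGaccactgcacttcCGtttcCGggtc
Hnrnpr (chr4:136310692-136310941, plus strand): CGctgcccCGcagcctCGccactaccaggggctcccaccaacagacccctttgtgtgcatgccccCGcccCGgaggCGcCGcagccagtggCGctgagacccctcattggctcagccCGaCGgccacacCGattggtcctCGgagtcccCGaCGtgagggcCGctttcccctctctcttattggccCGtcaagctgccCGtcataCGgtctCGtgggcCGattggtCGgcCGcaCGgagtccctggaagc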

How the data were processed

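Total RNA of 6 organoid cultures was labelled with Cy3 and hybridised to 1-colour Agilent mouse arrays read with Agilent Feature Extraction 11.5.1.1. The authors background-corrected and quantile-normalised the arrays, and the deposited table holds log2 values, which were used as given. Their distance from normexp (offset 15) on the deposited scanner intensities had a median of 0.00507. Scanner intensity columns also gave the background flags, the probes and the alternatives. Probes were mapped to mm9 per the file headers. Fits used limma 3.58.1 in R 4.3.3 (lmFit, eBayes, two-sided, Benjamini-Hochberg over 55681 probes, called at an adjusted p of 0.05), and tables and plots Python 3.11.15 and matplotlib 3.10.9. The fit was tested on simulated data. The number of arrays, 3 per tissue, limits precision, and an exact permutation test of 3 against 3 cannot go below 0.1. The labels give mouse 1, 2 and 4 for both tissues, and same-numbered cultures were read as coming from the same mouse and paired in the blocked fit. Their deviations from the tissue means correlated at 0.025, 0.012 and -0.008 for mice 1, 2 and 4, which does not bear out a pairing.

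Genes were named if called, if a single regulator, if extreme in their family in either direction, if below background in a tissue, or, in the 8 lists, if called with the largest change. Hnrnpc, Hnrnpd, Hnrnpul1, Sf3a3, Sf3b1, Snrpb, Srsf2 and Srsf9, the other genes called in the lists, the uncalled members listed without values and the second probes were named after their values were seen. The members and lists were chosen with earlier results of these data known. Alternatives were normexp with offset 16 or 50 on scanner mean intensities, scaling to the 75th percentile, the mouse or slide as a block, a filter on dim probes, the mean of all probes, a trended robust eBayes, the methods' threshold of 1.5-fold, and leaving out each array.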

Additional observations from a re-analysis of the deposited data

How the results depend on the processing

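Snrpn kept its direction and its call under all 15 alternatives, and 46 to 57 of the 58 genes had a log2 fold change above 0. The count called higher in esophageal organoids, 3 in the main analysis, was 0 with scaling to the 75th percentile, 6 with the mean of all probes, 1 with the slide as a block, which is the same fit as leaving out the esophageal array of mouse 4, 12 with the methods' threshold and 0 to 8 with each array left out. With the mouse as a replicate block it was 2 (Hnrnpr and Sf3b6), so the paired fit lost Snrpe and Snrpd1, gained Sf3b6 and kept Snrpn. The median log2 fold change was 0.65 with scaling to the 75th percentile, which also moved the median of all genes above background from 0.09 to 0.22, and it was 0.30 to 0.50 with each array left out.

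Signs turned mostly in genes near 0. Scaling to the 75th percentile raised the median of the list, and the signs that turned under it went from below to above 0. These turns are not read as results about single genes. Probes moved by different amounts: the second Esrp1 probe went from 0.689 to 0.695 and the second Snrpn probe from -2.85 to -4.61. With this scaling Esrp2 was 0.15, Hnrnpa2b1 0.060, Hnrnpul1 0.0017, Ptbp1 0.14, Sf3a2 0.011, Srsf5 0.10 and the second Hnrnpdl probe 0.084. With the slide as a block Esrp2 was 0.25 and Srsf5 0.14. With the mean of all probes Hnrnpr was -0.091 and Hnrnpul1 0.060. With 1 array left out, Esrp2 ran from -0.28 to 0.25, Hnrnpa2b1 from -0.57 to 0.057, Mbnl2 from -0.10 to 0.37, Ptbp1 from -0.33 to 0.26, Sf3a2 from -0.65 to 0.29 and Srsf5 from -0.28 to 0.14. The cause of the turns was not tested.

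With 3 arrays per tissue, 1 array decides many calls. Tissue, medium and, in part, slide and harvest day cannot be separated. Dim probes such as those of Srsf12 have no measured level.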

Other observations

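The Snrpn difference extended to unnamed probes beside it, which were examined after the Snrpn values were seen. Within 20000 bases of its probes on the minus strand of mm9 chromosome 7, 8 probes target interval transcripts, of which 4 were well above background in all stomach arrays and called higher there (limma, adjusted p under 0.05), whereas over all probes 6.22% were called higher in stomach organoids. The intervals of these probes overlap and several probes share an interval, so their count is not one of separate transcripts. The probe at chr7:67114753-67114812 measured 8.42, 8.17 and 8.62 in stomach organoids and was not well above background in esophageal organoids, on the authors' values at least 8.86-fold lower with an adjusted p of 1.02e-05. The probe at chr7:67114885-67114944 was at least 8.34-fold lower. Of named genes further along the same imprinted region, Peg12 was lower in esophageal organoids (log2 fold change -1.01, adjusted p 0.025), Ube3a did not pass the test (0.73, adjusted p 0.0825), and Ndn and Snhg14 were well above background on no array.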
